A study of Homo sapiens with 6 samples.

Results

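The BCL2 family genes described here are *BCL2*, *BCL2L1*, *MCL1*, *BAX*, *BAK1*, *BBC3*, *PMAIP1*, *BCL2L11*, *BID* and *BAD*, taken by symbol as 10 named genes out of the 60480 gene identifiers listed in the count table. They were followed in OE-19 cells, an established line from adenocarcinoma of the esophagogastric junction (AEG), by RNA-seq of polyadenylated RNA. The 3 control libraries came from cells with a control knockdown, and the 3 IGF2BP3 KD libraries from cells carrying an shRNA against *IGF2BP3*, which encodes an RNA-binding protein that reads m6A-marked transcripts. All 6 libraries came from the same line grown in RPMI1640 medium with fetal bovine serum, and the labels describe no death stimulus. The control libraries carry the title shControl and the column name Puro, and the IGF2BP3 KD libraries the name shIGF2BP3. Whether Puro refers to a selection drug is not stated. The labels give neither the hairpin nor whether replicates were separate cultures, so p-values measure the spread between these libraries, which may be technical. The comparison asked how the RNA of the cell death switch at the mitochondrion differed when *IGF2BP3* was lowered.

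BCL2 family proteins decide whether the outer membrane of the mitochondrion stays closed. *BCL2*, *BCL2L1* (encoding BCL-XL) and *MCL1* encode anti-apoptotic guardians, *BAX* and *BAK1* encode the effectors that open pores in that membrane, and the BH3-only genes *BBC3* (PUMA), *PMAIP1* (NOXA), *BCL2L11* (BIM), *BID* and *BAD* encode proteins that hold the guardians or engage the effectors. MCL1 protein and its mRNA are both known to turn over quickly, and epithelial cells commonly rely on MCL1 and BCL-XL for survival.

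*IGF2BP3* itself had 7416, 7363 and 6532 counts in the control libraries and 777, 792 and 794 in the IGF2BP3 KD libraries. In CPM (its count relative to the library total, after TMM scaling between libraries) its level went from 108 ± 2.92 to 13.3 ± 0.996 (mean ± SD, n = 3 each), a log2 fold change of -3.03 (SE 0.06, adjusted p = 3.1e-10 by edgeR's quasi-likelihood test). It shares 1521 exon bases with *MALSU1* on the opposite strand, which had a log2 fold change of -0.67. Library totals lay between 53424071 and 69989087 counts, and TMM factors between 0.992 and 1.01. Counts of libraries from 1 group differed by more than sampling noise (chi-square per degree of freedom 9.86 to 17.6, against 46.3 to 58.2 between groups), so no library was a copy of another. The 6 epithelial markers summed to between 6011 and 6089 CPM in control and between 5945 and 6061 CPM in IGF2BP3 KD. Of 8 markers of fibroblasts, macrophages, T cells and endothelium, *CD3E* and *COL1A2* were at 0 in every library and 3 others reached at most 28 counts, while the summed level of the list was 54.5 to 61.2 CPM in control and 83.1 to 83.6 CPM in IGF2BP3 KD, most of it *CD68* (0.54 on the log2 scale) and *COL1A1* (0.50). Whether this bears on any difference below was not tested.

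Among the family, *MCL1* and *BID* were lower in IGF2BP3 KD cells, with changes of -9.95% and -9.76%, and no member was called higher. All 10 members passed the low-count filter that left 19778 genes for the test. At an adjusted p under 0.05 (Benjamini-Hochberg, over all genes tested) 2 members were lower and 0 higher, with 10.6% of all genes tested called lower and 9.87% called higher. For the 9811 genes with a control mean of at least 10 CPM, these shares were 19.7% and 16.1%. That set includes 8 members, *MCL1* and *BID* among them. At an unadjusted p under 0.05, *MCL1*, *BID* and *BCL2L1* were lower (3 members, background 15.3%) and *BAK1* and *BAD* higher (2 members, background 15.5%). DESeq2 called 3 members lower, where its background was 12.2%, and 1 higher, where it was 11%. The 3 IGF2BP3 KD values lay below all 3 control values for 5 members (*MCL1*, *BID*, *BCL2L1*, *BAX* and *BCL2*), as for 17.8% of all genes, and above them for 1 member, *BAK1*, as for 18% of all genes.

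The family's differences were small in size. Its median log2 fold change was -0.13, beside 0.01 over all genes tested, and its median absolute log2 fold change was 0.150, beside 0.188. Among the 9811 genes with a control mean of at least 10 CPM, to which 8 members belong, the median log2 fold change was -0.015. Their median absolute value was 0.128, below the 0.150 of all 10 members. Of these well-expressed genes, 43.1% had a larger absolute log2 fold change than *MCL1*. The median SE of these well-expressed genes was 0.06 on the log2 scale.

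**Figure D1:**
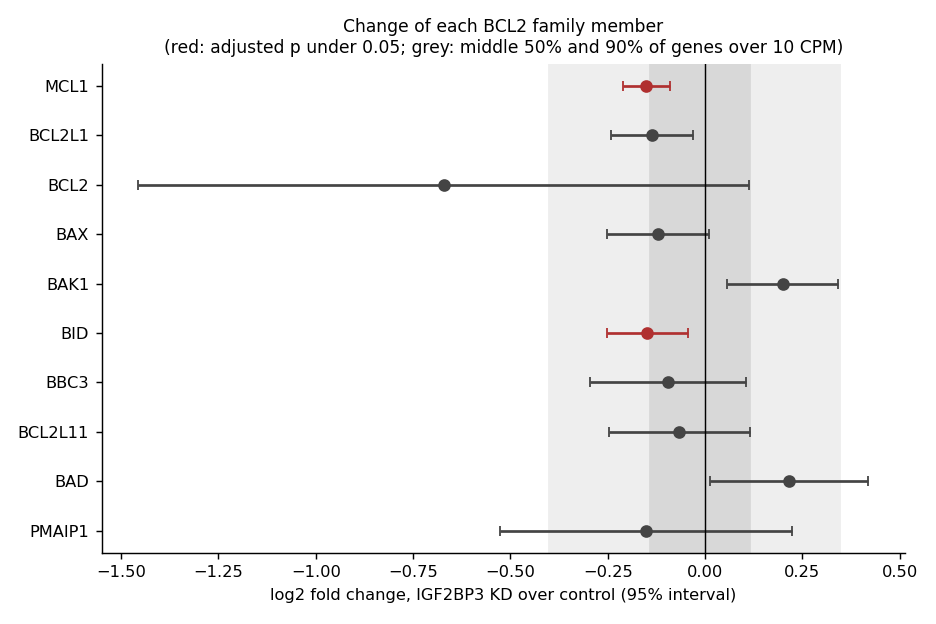
Log2 fold change of each BCL2 family gene in IGF2BP3 KD against control OE-19 cells (x axis), with 95% confidence intervals from edgeR's fit of 3 against 3 libraries and grey bands for the middle 50% and 90% of 9811 genes with a control mean of at least 10 CPM. *MCL1* at -0.15 and *BID* at -0.15 passed the test, the interval of *BCL2* ran from -1.46 to 0.11, and *BAK1* (0.20) and *BAD* (0.22) lay on the higher side.

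*MCL1* (ENSG00000143384, chr1:150560895-150579738, minus strand, hg38 as in GENCODE v44) was the most abundant guardian. Its level was 298, 306 and 298 CPM in the control libraries and 266, 276 and 270 CPM in the IGF2BP3 KD libraries, from 14352 to 21283 counts. The groups did not overlap, and the highest IGF2BP3 KD value stood below the lowest control value. The log2 fold change was -0.15 (SE 0.03, adjusted p = 0.0023 by edgeR), a change of -9.95% with a 95% interval from -13.6% to -6.11%. This was the only member whose call held in all 13 alternative fits, with log2 fold changes from -0.17 to -0.13. *MCL1* shares 328 exon bases with *ADAMTSL4-AS1* on the same strand, which had 0 to 26 counts a library. It shares 43 with *ADAMTSL4* on the opposite strand, which had 76 to 144 counts. How far these genes share reads was not tested.

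The 3′ UTR of *MCL1* holds 3 copies of TGGAC. This word, with U for T in the RNA, is the motif the study names for IGF2BP3 binding. The copies are shown because *MCL1* is the member with the firmest difference, 29 bases of the RNA strand each from hg38 (minus strand), with the motif in capitals.
MCL1 site 1, chr1:150577291-150577319: agtttatgcagtTGGACtccaagctgtaa
MCL1 site 2, chr1:150575580-150575608: gtcccttttcctTGGACtggtatcttttc
MCL1 site 3, chr1:150575312-150575340: acctttagtctgTGGACtccatttaaaaa
The first copy begins 68 bases into the 2817-base UTR, and the other copies begin at positions 1779 and 2047. A motif this short is common: 61.4% of the 13933 coding 3′ UTRs of tested genes hold it, and 86% of UTRs within 1.2 times the length of this one. Genes with TGGAC were called lower in 15.6% and higher in 14.0% of cases, those without it in 12.4% and 11.5%, so a match here is a description of the sequence and no evidence of binding. The same UTR holds 10 copies of ATTTA, the core of AU-rich elements known from short-lived mRNAs. At least 1 copy is present in 70.6% of the UTRs, and in 95.5% of those near this length.

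*BCL2L1* (ENSG00000171552, chr20:31664452-31723989, minus strand) is the gene of BCL-XL. Its level was 113, 107 and 115 CPM in control and 94.7, 104 and 106 CPM in IGF2BP3 KD. The groups did not overlap, although the gap between 107 and 106 CPM was narrow. The log2 fold change of -0.14 (SE 0.05, 95% interval -0.24 to -0.03) missed the threshold in edgeR (adjusted p = 0.071). It passed in 2 of 13 alternatives, DESeq2 (adjusted p = 0.021) and at least 10 counts in every library (adjusted p = 0.0357). It passed in 0 of 6 fits with 1 library left out (highest adjusted p 0.216, at -0.09 without IGF2BP3 KD replicate 1). Of its 4197 exon bases, 1735 lie under the antisense transcript *ABALON*, which had 2406 to 4144 counts and a log2 fold change of -0.28 (adjusted p = 0.049 by edgeR). The strand setting of the counting is not given in the sources used here, so how far the 2 genes share reads was not tested. Its UTR has 2 copies of TGGAC among 1491 bases.

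*BCL2* (ENSG00000171791, chr18:63123346-63320128, minus strand) was barely detected. The control libraries held 50, 52 and 51 counts and the IGF2BP3 KD libraries 33, 21 and 33, or 0.730, 0.746 and 0.871 CPM against 0.611, 0.338 and 0.524 CPM. Every IGF2BP3 KD value was below every control value. The fitted difference had a wide error, with a log2 fold change of -0.67 (SE 0.36, 95% interval -1.46 to 0.11, adjusted p = 0.24 by edgeR), and none of the 13 alternatives called it.

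**Figure D2:**
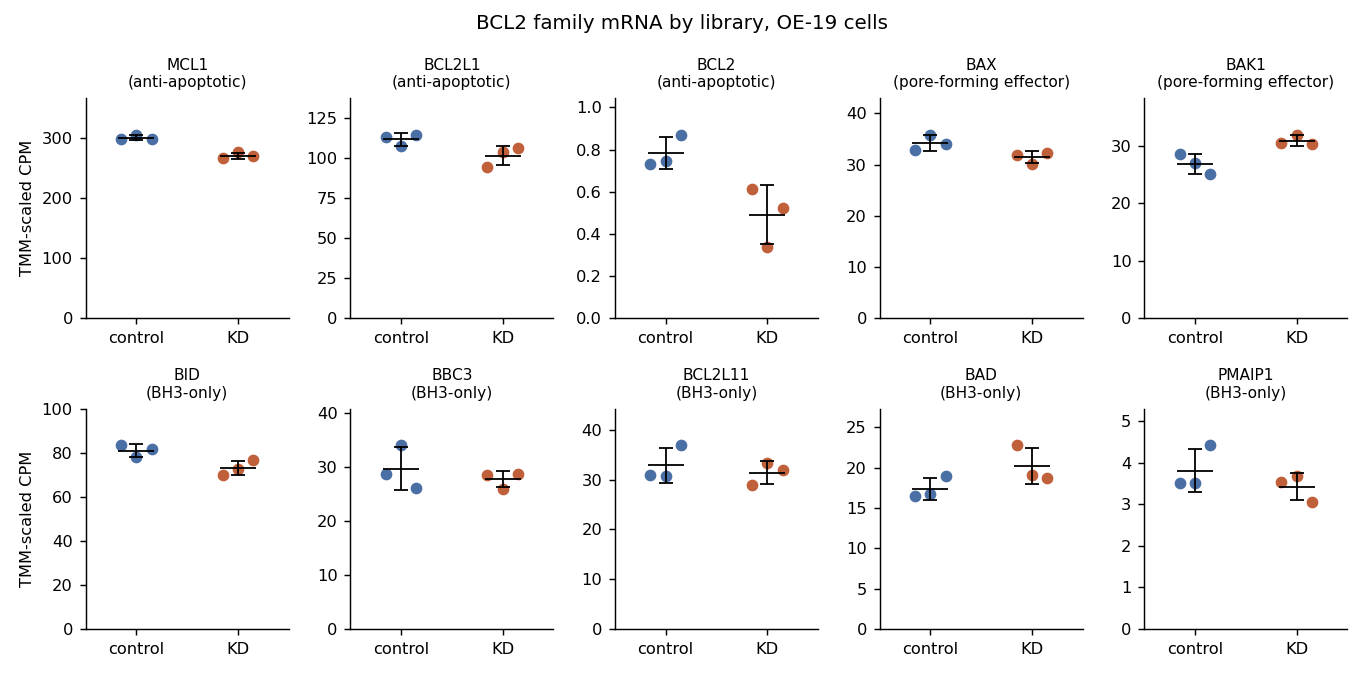
Level of each BCL2 family gene in CPM (y axis) in the 3 control and 3 IGF2BP3 KD libraries, 1 point a library with the group mean and SD, each panel on its own scale. *MCL1* sits at 298 to 306 CPM in control and 266 to 276 in IGF2BP3 KD without overlap, while *BBC3*, *BCL2L11* and *PMAIP1* overlap between groups.

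The effectors had fold changes of opposite sign, and neither passed the test. *BAX* (ENSG00000087088, chr19:48954815-48961798, plus strand) stood at 32.8, 35.9 and 34.0 CPM in control and 31.9, 30.2 and 32.3 CPM in IGF2BP3 KD. The groups just failed to touch, and the log2 fold change of -0.12 (SE 0.06, adjusted p = 0.19 by edgeR) did not pass the test. Its interval allows anything from 16.1% lower to 0.614% higher.

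*BAK1* (ENSG00000030110, chr6:33572547-33580293, minus strand) stood at 28.7, 27.0 and 25.1 CPM in control and 30.5, 32.0 and 30.3 CPM in IGF2BP3 KD. It was the member whose 3 IGF2BP3 KD values all exceeded the control values. The log2 fold change of 0.20 (SE 0.06, 95% interval 0.06 to 0.34) fell just short of the threshold in edgeR (adjusted p = 0.051). It passed in 5 of 13 alternatives, among them DESeq2 (adjusted p = 0.0393), scaling by library totals (0.0356) and the fit without control replicate 1 (log2 fold change 0.24, adjusted p = 0.0345), and without control replicate 3 the adjusted p was 0.202.

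Within a library, the ratio of *BAX* to *BAK1* needs no scaling between libraries. In CPM it was 1.14 to 1.35 in control and 0.943 to 1.07 in IGF2BP3 KD (means 1.28 ± 0.114 and 1.02 ± 0.0659, n = 3 each), so the groups did not overlap. *MCL1* was 10.4 to 11.9 times *BAK1* in control and 8.63 to 8.90 times in IGF2BP3 KD. The ratio of *BCL2L1* to *BAX*, in contrast, spanned 3.0 to 3.44 in control and 2.97 to 3.44 in IGF2BP3 KD. These ratios were picked with the gene values known and carry no test, and an exact permutation test of 3 against 3 libraries cannot fall below a two-sided p of 0.1.

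Both effector UTRs hold the same 5-letter motif, shown to set a gene on the lower side beside the one on the higher side (hg38, RNA strand, TGGAC in capitals).
BAX, chr19:48961640-48961668, plus strand: ccccagctgcctTGGACtgtgtttttcct
BAK1 site 1, chr6:33573744-33573772, minus strand: cagacccctgccTGGACttaagcgaagtc
BAK1 site 2, chr6:33573163-33573191, minus strand: tgcctttgcagtTGGACtctcagggattc
The *BAX* UTR is 162 bases long, and 19% of UTRs of like length hold the motif. For *BAK1*, with 1251 bases, the share is 66.4%. The motif was present in both genes, whose fold changes differed in sign. Neither change passed the test, so this describes the sequences only.

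Of the BH3-only genes, *BID* (ENSG00000015475, chr22:17734138-17774770, minus strand), whose protein is cut by caspase-8 and carries the death receptor signal to the mitochondrion, was lower in IGF2BP3 KD. Its level was 83.4, 78.0 and 81.8 CPM in control and 70.1, 72.7 and 76.6 CPM in IGF2BP3 KD, without overlap. The log2 fold change was -0.15 (SE 0.05, 95% interval -0.25 to -0.04, adjusted p = 0.049 by edgeR), a change of -9.76%. The call sat at the threshold and was lost without control replicate 1 (log2 fold change -0.13, adjusted p = 0.114), control replicate 3 (-0.14, 0.133), IGF2BP3 KD replicate 1 (-0.12, 0.160) or IGF2BP3 KD replicate 2 (-0.14, 0.130). It was also lost without the low-count filter, by upper-quartile scaling and by library totals. The single TGGAC in its UTR of 1442 bases (69.6% of UTRs of like length hold one) reads as follows, the motif in capitals.
BID, chr22:17734609-17734637, minus strand: tgaaagagcagtTGGACtttttaaaaatt

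*BAD* (ENSG00000002330, chr11:64269830-64284704, minus strand), the BH3-only gene whose protein is held inactive by phosphorylation downstream of growth factors, stood at 16.5, 16.7 and 18.9 CPM in control and 22.8, 19.1 and 18.8 CPM in IGF2BP3 KD. The groups overlapped by 1 control library, and IGF2BP3 KD replicate 1 stood above the rest. The log2 fold change of 0.22 (SE 0.09, adjusted p = 0.13 by edgeR) went to 0.12 without that library. *BAD* shares 404 exon bases with *GPR137* on the opposite strand, which had a log2 fold change of -0.12 (adjusted p = 0.36 by edgeR).

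The remaining BH3-only genes overlapped between groups. *BBC3* (ENSG00000105327, chr19:47220822-47232766, minus strand), a p53 target, stood at 28.7, 34.0 and 26.2 CPM in control and 28.6, 26.0 and 28.7 CPM in IGF2BP3 KD (log2 fold change -0.10, SE 0.09, adjusted p = 0.54 by edgeR). Control replicate 2 carried that value, which was 0.01 without it.

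*BCL2L11* (ENSG00000153094, chr2:111119378-111168444, plus strand), a FOXO target, stood at 31.0, 30.8 and 36.9 CPM in control and 28.9, 33.3 and 32.0 CPM in IGF2BP3 KD. Its log2 fold change of -0.07 (SE 0.08, adjusted p = 0.66 by edgeR) was 0.02 without control replicate 3. *BCL2L11* shares 727 exon bases with *MIR4435-2HG* on the opposite strand, which had 515 to 636 counts. *PMAIP1* (ENSG00000141682, chr18:59899996-59904305, plus strand), whose protein binds MCL1, stood at 3.50, 3.52 and 4.42 CPM in control and 3.54, 3.69 and 3.06 CPM in IGF2BP3 KD (log2 fold change -0.15, SE 0.17, 95% interval -0.53 to 0.22, adjusted p = 0.61 by edgeR). For these 3 genes no difference was detectable at this depth and spread.

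**Figure D3:**
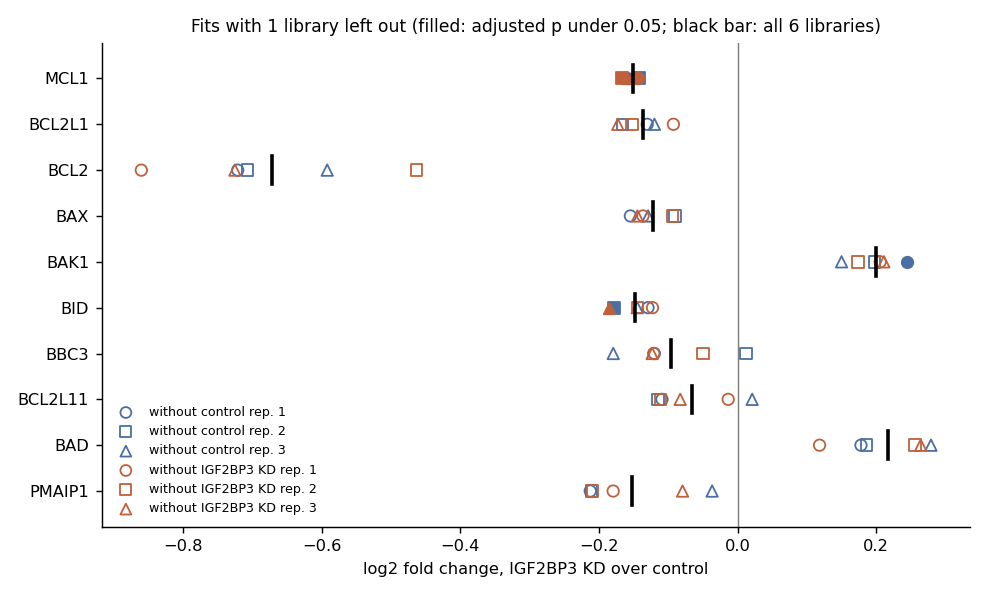
Log2 fold change of each member (x axis) with all 6 libraries (black bar) and with each library left out in turn (blue, a control library left out, orange, an IGF2BP3 KD library left out, filled where the adjusted p was under 0.05). All 6 points of *MCL1* are filled, *BID* keeps 2 of 6, and *BBC3* and *BCL2L11* each have 1 point past 0.

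Levels between genes were compared as CPM per 1000 exon bases. In control cells *MCL1* led with 48.3 ± 0.703, followed by *BCL2L1* with 26.6 ± 0.903, *BID* with 18.3 ± 0.636, *BAX* with 13.2 ± 0.593, *BAK1* with 12.2 ± 0.794, *BAD* with 10.2 ± 0.790, *BBC3* with 9.31 ± 1.25, *BCL2L11* with 4.88 ± 0.516, *PMAIP1* with 1.74 ± 0.241 and *BCL2* with 0.0620 ± 0.00610 (n = 3 each). Neighbours in this order were separate in every control library except *BAX* and *BAK1*, and *BAD* and *BBC3*. *MCL1* was 1.81 times the next gene and *PMAIP1* 28.1 times *BCL2*, so *MCL1* and *BCL2L1* made up nearly all RNA of the 3 guardians. Over exon bases, the order in IGF2BP3 KD was the same save that *BAK1* (14.0 ± 0.417) stood above *BAX* (12.2 ± 0.438). Part of the order depends on the length used: over the canonical transcript, *BAX* ranked 3 and *BAK1* 7 in control. On that scale *BAX* (39.6 ± 1.43) stayed above *BAK1* (14.3 ± 0.425) in IGF2BP3 KD, and its mean was close to that of *BCL2L1* (39.5 ± 2.37).

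**Figure D4:**
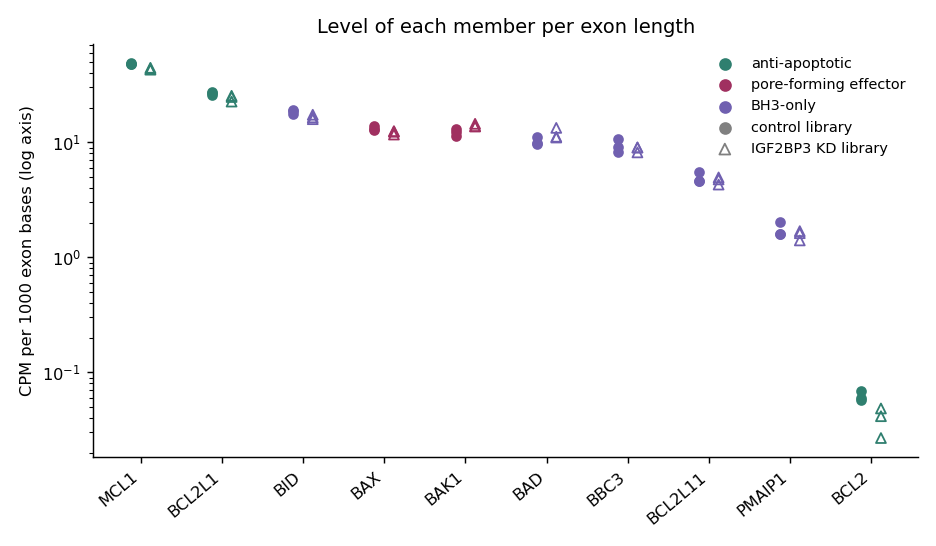
Level of each BCL2 family gene as CPM per 1000 exon bases (log axis), 1 point a library for control and IGF2BP3 KD, ordered by the control mean. *MCL1* tops the order at 48.3 in control and *BCL2* is at its foot at 0.0620.

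Summed by role on that scale, the guardians made up 51.5% to 51.9% of the family in control libraries and 48.2% to 50.2% in IGF2BP3 KD libraries. The effectors made up 16.9% to 18.0% and 18.9% to 19.3%, and the BH3-only genes 30.3% to 31.2% and 30.8% to 32.5%. The guardian share was lower in every IGF2BP3 KD library, also over canonical transcript lengths (46.4% to 47.1% against 43.8% to 46.0%), whereas the effector share overlapped between groups on the latter scale (21.2% to 22.4% against 22.0% to 22.8%). The BH3-only share, which overlapped between groups over exon bases, was narrowly separate over canonical transcript lengths (31.2% to 31.89% against 31.94% to 33.5%). The share of *MCL1* among the guardians overlapped as well, at 63.6% to 65.7% in control and 63.1% to 65.4% in IGF2BP3 KD. The sums hold only the named members, and the shares depend on that choice. *BMF*, a BH3-only gene, was left out (mean 178 CPM in control and 117 CPM in IGF2BP3 KD). Also left out were *BOK*, a pore-forming relative (32.6 and 45.4 CPM), and *BCL2L2* (61.5 and 66.2 CPM, not called). How the shares would read with such relatives included was not tested. The shares are a description of RNA and carry no test.

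Around the family, 58 of 62 genes in 6 lists of the intrinsic and extrinsic death pathways were tested, of which 13 were lower, 7 higher and 38 not called, with a median log2 fold change of -0.07. These counts, and those of each list below, stand beside 10.6% lower and 9.87% higher over all genes tested, and 19.7% lower and 16.1% higher among the well-expressed genes. Of 13 other BCL2 relatives, 10 were tested, 2 were lower, 3 higher and 5 not called. *BMF*, a BH3-only gene tied to loss of cell anchorage, fell from 171, 184 and 178 CPM to 116, 124 and 112 CPM (log2 fold change -0.60, SE 0.04, adjusted p = 3.8e-06 by edgeR), and only 2.99% of the well-expressed genes moved further. *BOK*, a pore-forming relative, rose from 28.0, 35.3 and 34.5 CPM to 45.1, 42.6 and 48.5 CPM (0.48, SE 0.09, adjusted p = 0.0024). Both fold changes were larger in size than those of any of the 8 well-expressed members, and both calls held in all 13 alternatives. *BNIP3L*, a mitophagy receptor, was higher (0.21, SE 0.04, adjusted p = 0.0057), as was *BCL2L15* (0.23, SE 0.07, adjusted p = 0.028), whose call was lost in 4 of 6 fits with 1 library left out (highest adjusted p 0.138, without IGF2BP3 KD replicate 1). The fifth called relative, *BCL2L12* (-0.17, adjusted p = 0.048), lost its call whichever library was left out and is named here after its value was seen. The anti-apoptotic relative *BCL2A1* had 0 counts in every library, and *BCL2L10* and *HRK* never exceeded 8 counts.

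Downstream of the pore, 3 of 10 genes of mitochondrial release and the apoptosome were lower, 1 higher and 6 not called. *VDAC1*, the main channel of the outer membrane, was lower (396 ± 3.17 to 324 ± 2.46 CPM, log2 fold change -0.29, SE 0.02, adjusted p = 1.2e-05 by edgeR). *DIABLO*, whose protein relieves caspases of their inhibitors once released, was lower (-0.30, adjusted p = 0.038), a call lost in 4 of 6 fits with 1 library left out (highest adjusted p 0.153, without control replicate 3). *HTRA2*, a released protease with the same kind of target, was higher (0.31, adjusted p = 0.012, and 0.0588 without IGF2BP3 KD replicate 3). *AIFM1* was lower (-0.15, adjusted p = 0.016). Its call held in 3 of 6 fits with 1 library left out (highest adjusted p 0.0598, without IGF2BP3 KD replicate 3).

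Among the caspases and their nuclease partners, *DFFA*, the inhibitor of the apoptotic nuclease, was lower (-0.19, adjusted p = 0.024 by edgeR), and 6 genes were not called. The *DFFA* call held in 2 of 6 fits with 1 library left out (highest adjusted p 0.104, without control replicate 3). Of 7 IAP genes, which encode proteins that restrain caspases, 6 were tested, 3 were lower, 1 higher and 2 not called. *XIAP*, the direct caspase inhibitor, fell from 156, 152 and 148 CPM to 101, 90.8 and 98.2 CPM (-0.65, SE 0.04, adjusted p = 2.4e-06). *BIRC6* (-0.17, adjusted p = 0.0034) and *BIRC5*, which also serves in cell division (-0.18, adjusted p = 0.014), were lower. The *BIRC5* call held in 3 of 6 fits with 1 library left out (highest adjusted p 0.0614, without control replicate 3). *BIRC3* was higher (0.34, adjusted p = 0.0024), and *BIRC7* reached at most 18 counts.

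The death receptor arm had 1 of 8 genes lower, *TNFRSF10B*, a TRAIL receptor (141 ± 2.95 to 115 ± 1.29 CPM, -0.29, adjusted p = 1.0e-04 by edgeR), and none higher, against 2 higher at an unadjusted p under 0.05 (background 15.5%) and 1 by DESeq2 (background 11%). Of 16 regulators of the members, 3 were lower, 1 higher and 12 not called. *ATF3* (-0.67, adjusted p = 0.0015) and *ATF4* (-0.19, adjusted p = 2.8e-04), stress-response factors, and *E2F1* (-0.58, adjusted p = 5.5e-05), a cell cycle factor, were lower. *HUWE1*, a ubiquitin ligase of MCL1 protein, was higher by 0.12 (adjusted p = 0.021). Its call held in 3 of 6 fits with 1 library left out (highest adjusted p 0.103, without IGF2BP3 KD replicate 2).

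**Figure D5:**
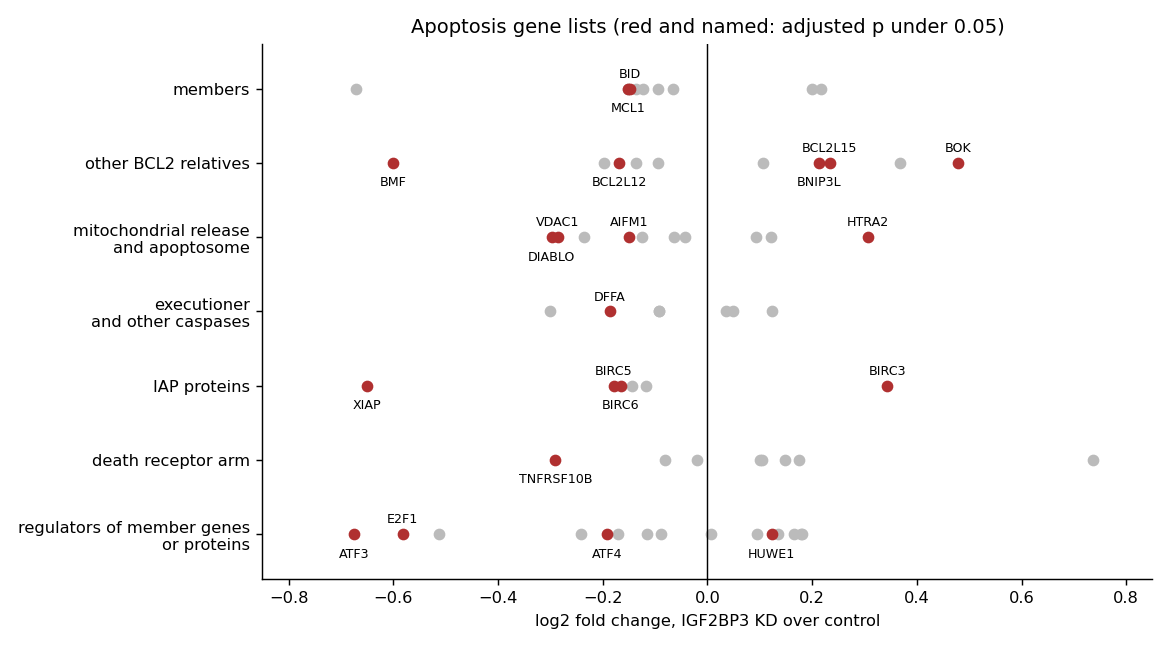
Log2 fold change in IGF2BP3 KD against control (x axis) of the BCL2 family genes (top line) and of the tested genes in 6 death pathway lists (y axis), 1 point a gene, red and named where the adjusted p was under 0.05 and grey otherwise, with 1 uncalled gene, *TP73*, beyond the axis and not drawn, nor a gene whose result is not reported here. *XIAP* (-0.65), *ATF3* (-0.67) and *BMF* (-0.60) lie lowest among the called genes, and *BOK* (0.48) highest, while the BCL2 family members other than *BCL2* (-0.67, not called) lie between -0.15 and 0.22.

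A pair of 7-base words was searched in the UTRs of the family and its pathway. Earlier results of these same libraries had picked GATTACT from UTRs of genes that were lower and ACACATC from UTRs of genes that were higher, so their shares are no independent support. Of the 13933 UTRs, 7.69% hold GATTACT, and 35.1% of those genes were lower against 12.6% of the others. ACACATC occurs in 9.53%, of which 28.1% were higher against 11.5%. Searched on the RNA strand, 0 of the 10 member UTRs hold either word. Near the length of *MCL1*, 10.7% of UTRs hold GATTACT and 14.7% hold ACACATC. These shares were highest near the length of *BCL2* (21.2% and 24.1%) and lowest near that of *BAX* (0.594% and 0.396%). Near the length of *BID* they were 5.11% and 7.23%. With shares this low for short UTRs, the absence is a description only.

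Of 68 members and pathway genes with a UTR scanned, 7 hold GATTACT, of which *XIAP* was lower and *BNIP3*, *APAF1*, *GSK3B*, *CFLAR*, *CREB1* and *FOXO1* were not called. Of the same 68, 6 hold ACACATC (*APAF1*, *GSK3B* and *CFLAR* hold both words), of which *BOK* and *BIRC3* were higher and *APAF1*, *GSK3B*, *CFLAR* and *FOXO3* were not called. The windows of the called genes are given for these relatives of the pathway, with the word in capitals (hg38, RNA strand).
XIAP, chrX:123908969-123908997, plus strand: taacttctgttGATTACTactttaagtga
BOK, chr2:241572479-241572507, plus strand: tcagcacccgaACACATCttcctcctccc
BIRC3, chr11:102337874-102337902, plus strand: acacggggtcaACACATCataaaatctat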

How the data were processed

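RNA-seq was performed by the authors on polyadenylated RNA with a directional kit, and reads were processed with fastp, HISAT2 and featureCounts on hg38, per the submitters' processing notes; versions, annotation release and strand setting are not given in the sources used here. The deposited table holds raw counts per gene in 6 libraries, 3 a group. The first entry of each of 44 repeated identifiers was kept and 132 further entries were left out. Genes were filtered (filterByExpr, minimum count 10, minimum total 15), scaled by TMM and tested with edgeR 4.0.16 (quasi-likelihood, R 4.3.3) on the groups alone, with Benjamini-Hochberg adjustment over 19778 genes and a threshold of 0.05. Intervals are 95% intervals of the fit, and percent changes follow from them. The script was tested on simulated data. Coordinates, exon lengths and 3′ UTRs are from GENCODE v44, which held 19773 of the tested genes, and the UTR words were read in canonical transcripts. DESeq2 1.42.0, other scalings and filters, a replicate block, other thresholds and each library left out were alternatives; the length of the canonical transcript was added after the data were seen. Members, pathway lists and words were chosen with earlier results of these data known. From each pathway list, at most 4 genes with the smallest p among those called and separate between groups were named, plus those at 0 or filtered out; word holders are named as a full set. Some single-gene results are not reported here, though the genes count in the totals.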

Additional observations from a re-analysis of the deposited data

How the results depend on the processing

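The 2 members called lower became 1 under upper-quartile scaling, library totals, no low-count filter or an adjusted p under 0.01, 0 where the log2 difference also had to reach 0.5 in size, and 1 to 2 with 1 library left out, and 3 under DESeq2, at least 10 counts in every library or an unadjusted p under 0.05. The 0 members called higher became 1 under upper-quartile scaling, library totals, at least 10 counts in every library or DESeq2, 2 at an unadjusted p under 0.05, and 0 to 1 with 1 library left out. Pathway genes lower and higher numbered 21 and 15 at the unadjusted threshold, 8 and 4 at an adjusted p under 0.01, and 4 and 0 with the fold limit. Over all genes, 1314 were lower and 1098 higher at an adjusted p under 0.01, 416 and 465 with the fold limit, and 3061 higher at the unadjusted threshold. With 1 library left out, the log2 fold change of *BBC3* ran from -0.18 to 0.0125 (without control replicate 2) and that of *BCL2L11* from -0.11 to 0.0211 (without control replicate 3). A replicate block gave 2 members lower and 0 higher and, over all genes, 2026 lower and 1875 higher. With the block, 16 pathway genes were lower and 8 higher, against 13 and 7 without it. Deviations of same-numbered libraries from their group means did not correlate over all genes tested (r = -0.00173, -0.0315 and 0.00915). Low-count genes weigh as much as others in these values, so they cannot tell whether the libraries were paired. The median of all genes stayed at or under 0.03 in every scaling. *BCL2* had 21 to 52 counts a library, the fewest of the members; counting error and spread between libraries were not separated. The cause of these shifts was not tested.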

Other observations

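The genes whose log2 CPM followed *MCL1* most closely over the 6 libraries were *PVT1* and *E2F1* (Pearson's r = 0.997 for each), with log2 fold changes of -0.54 and -0.58. The 6 points share the group difference, and 1398 of 14286 genes compared had an r over 0.9, so the order among them is a description of these libraries only.

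*TGGAC* copies were counted in the UTR of every member. *BCL2* and *BCL2L11* held 5 each, *BBC3* held 3, and *PMAIP1* and *BAD* none, where 71.9% and 34.4% of UTRs of like length hold at least 1. *ATTTA* occurred in 6 members, with 13 copies in *BCL2*, 8 in *BCL2L11*, 5 in *PMAIP1*, 3 in *BCL2L1* and 2 in *BID*. Near the lengths of these UTRs, 84.1% (*BID*) to 99.2% (*BCL2*) of UTRs hold at least 1 copy.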
